A study of Mus musculus with 6 samples.

Results

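Phagocytic and disease-associated macrophage genes are the transcripts that macrophages, and microglia, the resident macrophages of the retina and brain, use to take up and digest debris and that they raise in injured or diseased tissue. The 10 genes described here, of 55573 genes in the count table, are Spp1, Gpnmb, Lyz2, Ctsd, Ctsb, Cst7, Trem2, Tyrobp, Cd68 and Fcgr3. They were chosen by gene symbol with the difference between the sample groups already in view, Spp1 and Lyz2 being known to differ, so their group differences are a description. The fit over all genes includes them, and whether it called each one is stated as part of that description and supports nothing. In macrophages, surface receptors such as Trem2 and the Fc receptors bind lipids, dying cells or antibody-coated particles and signal through small adaptor proteins, and the engulfed cargo is broken down in lysosomes by cathepsins. Trem2 is known to be needed for microglia to enter the full disease-associated state, in which Spp1, Gpnmb and Cst7 are induced. In the injured retina, microglia and blood-derived macrophages clear dying neurons in this way.

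The RNA was total RNA of cells sorted by FACS as retinal ganglion cells (RGCs), the output neurons of the retina, from C57BL/6 mice. All mice carried floxed alleles of both Myh9 and Myh10, the nonmuscle myosin heavy chain genes. The libraries labelled dKO (3 replicates) came from eyes injected into the vitreous with AAV2-Cre, a virus that delivers the Cre recombinase, and those labelled WT (3 replicates) from eyes given AAV2-GFP, both 2 weeks before collection. Each library pooled 3 retinas of 3 mice. The age of the mice, and whether a mouse gave retinas to several libraries, are not stated in the labels. The SDs and SEs below therefore measure how far these libraries differ, some of which may be technical. The promoter that drives Cre is not stated in them either. WT libraries are therefore floxed and virus-injected, not untreated.

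Library totals were 4569880 to 5634316 counts in dKO and 4730540 to 6146226 in WT, of which a single ribosomal RNA row took most. Outside that row there were 453327 to 1636581 counts in dKO and 346037 to 499313 in WT. dKO replicate 3 stood apart with 64.2% of its counts in that row, against 89.8% to 92.8% in the other 5 libraries. It supplied 6164 of the counts on the 10 genes, against 2117 and 1662 in dKO replicates 1 and 2, and values without it are given below. Myh9 was at 62.7 ± 4.13 CPM in dKO and 64.2 ± 3.91 CPM in WT, and Myh10 at 18.00 ± 3.39 and 18.72 ± 2.08 CPM in dKO and WT (SD, n = 3 each), and since these counts cover the whole gene they do not check the deletion that the label names. Levels are CPM, counts relative to library sizes that were scaled with TMM factors. Counts on RGC markers were few: 12 RGC markers summed to 0.0279% ± 0.000920 of the counts left without that row in dKO and 0.0232% ± 0.000589 in WT, while 18 markers of homeostatic microglia took 0.571% ± 0.0159 and 0.541% ± 0.0302 in dKO and WT (SD, n = 3 each). In such bulk RNA, more cells of a type and more RNA per cell cannot be told apart.

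The promoters of Spp1 and Gpnmb are shown because these genes had the largest fold changes of the 10. That of Lyz2 is shown because it was the most abundant per length, and that of Cd68 because it alone had a negative value. For Ctsd the pair of E-box matches is shown. Each is RefSeq sequence of GRCm38.p6, 5′ to 3′ on the gene's strand, from the 250 bases before the transcription start site, without bases that lie in an exon of GENCODE M21 (except in the second Ctsd window). Capitals mark matches on either strand to CACGTG, the E-box bound by the lysosomal regulators of the Mitf and Tfeb family, to AGGAAG, a core bound by PU.1 (the macrophage factor Spi1) and other ETS factors, to TGANTCA, bound by AP-1, and to TTGCNNAA, a C/EBP type.
Spp1 (chr5:104434861-104435110, plus strand): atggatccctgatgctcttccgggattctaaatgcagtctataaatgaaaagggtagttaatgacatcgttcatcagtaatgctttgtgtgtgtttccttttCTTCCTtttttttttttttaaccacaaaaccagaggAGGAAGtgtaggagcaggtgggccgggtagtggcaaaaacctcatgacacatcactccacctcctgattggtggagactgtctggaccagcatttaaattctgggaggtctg
Gpnmb (chr6:49036268-49036517, plus strand): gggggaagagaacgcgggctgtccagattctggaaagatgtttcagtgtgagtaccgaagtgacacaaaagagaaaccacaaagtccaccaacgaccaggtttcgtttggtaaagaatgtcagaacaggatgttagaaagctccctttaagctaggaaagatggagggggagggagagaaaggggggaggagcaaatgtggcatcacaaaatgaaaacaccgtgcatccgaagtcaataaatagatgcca
Lyz2 (chr10:117282322-117282522, minus strand): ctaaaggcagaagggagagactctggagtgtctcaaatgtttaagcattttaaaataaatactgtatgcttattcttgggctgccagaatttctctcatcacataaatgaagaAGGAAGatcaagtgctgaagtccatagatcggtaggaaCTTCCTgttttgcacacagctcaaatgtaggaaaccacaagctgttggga
Cd68 (chr11:69666171-69666420, minus strand): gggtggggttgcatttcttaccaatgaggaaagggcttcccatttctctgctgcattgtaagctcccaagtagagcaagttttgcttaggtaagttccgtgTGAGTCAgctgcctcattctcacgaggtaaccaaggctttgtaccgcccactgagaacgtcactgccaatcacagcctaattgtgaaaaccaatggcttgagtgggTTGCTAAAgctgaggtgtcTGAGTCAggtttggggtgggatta
Ctsd, first E-box (chr7:142388048-142388077, minus strand): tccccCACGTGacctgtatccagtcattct
Ctsd, second E-box (chr7:142387908-142387937, minus strand): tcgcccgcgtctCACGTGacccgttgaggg

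RefSeq windows were found for 8 of the 10 genes; Ctsb and Tyrobp were not matched. AGGAAG was in the windows of 5 of these 8 genes, with 2 matches each in Spp1 (148 and 112 bases before the start) and Lyz2 (137 and 99 bases before it) and 1 match each in Cst7, Trem2 and Fcgr3. The same 6 letters were in 29.5% of all 32851 windows of 250 bases in the table. CACGTG was in 1 of the 8 genes, Ctsd, at 245 and 98 bases before the start, against 6.02% of all windows. TGANTCA was in Cd68 (149 and 24 bases before the start) and Trem2 (9 bases), against 6.75% of all windows, and TTGCNNAA was in Cd68 (43 bases) and Fcgr3 (28 bases), against 9.56%. None of the 4 motifs was in the Gpnmb window. Positions count from the RefSeq start. For Fcgr3 the start used, 1 of 2 listed, lay inside the gene, 5532 bases from its GENCODE start. The Ctsd start lay 211 bases inside the gene. Of the listed matches none overlapped another. These letters describe the windows and say nothing of binding.

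In both groups Lyz2, the lysozyme of macrophages and granulocytes that digests bacterial cell walls, had the highest level per length of the 10 genes. It stood at 65.4 ± 2.99 CPM per kilobase of merged exon in dKO and 46.1 ± 3.84 in WT. Ctsd, cathepsin D, an aspartic protease of lysosomes, followed with 45.4 ± 1.92 in dKO and 34.1 ± 2.50 in WT, then Tyrobp with 27.1 ± 2.15 and 26.3 ± 4.10, Ctsb with 21.2 ± 1.10 and 18.6 ± 1.53 and Fcgr3 with 15.4 ± 0.0693 and 11.4 ± 0.860 in dKO and WT (all CPM per kilobase, SD, n = 3 each). These 5 genes kept the same order in both groups, although Tyrobp and Ctsb lay close together in WT.

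**Figure D1:**
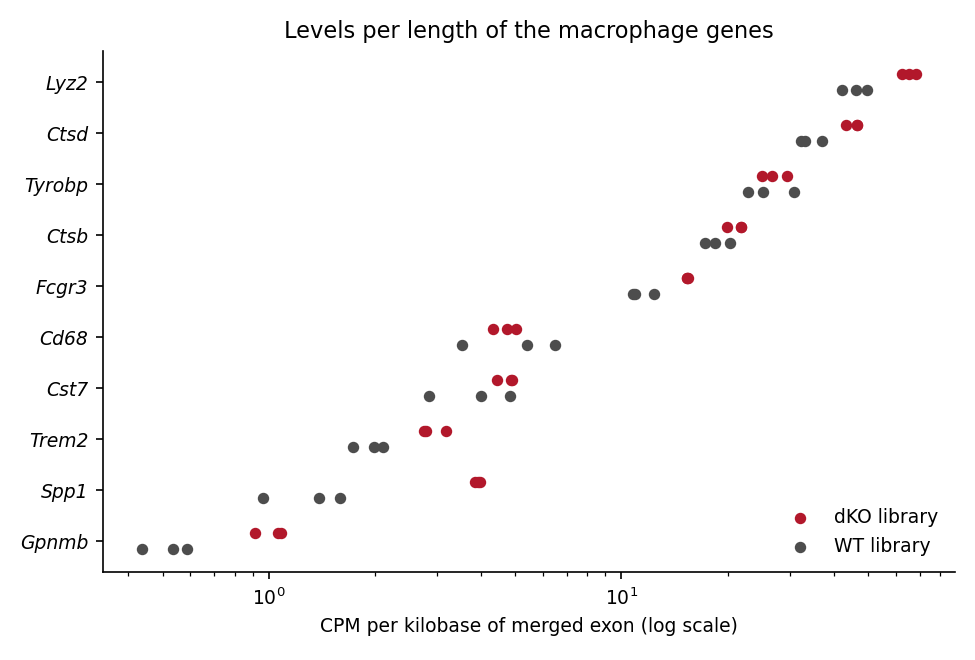
Level of each macrophage gene per kilobase of merged exon (x axis, CPM per kilobase, log scale), with 1 point for each of the 3 dKO libraries (red) and 3 WT libraries (grey). Lyz2 was highest in both groups (means 65.4 in dKO and 46.1 in WT) and Gpnmb lowest (1.02 and 0.519).

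The other 5 genes were lower. In dKO, Cst7 (4.73 ± 0.263) and Cd68 (4.69 ± 0.356) did not differ beyond their spread, and Spp1 (3.91 ± 0.0666), Trem2 (2.91 ± 0.239) and Gpnmb (1.02 ± 0.0919) followed. In WT the order was Cd68 (5.14 ± 1.498), Cst7 (3.88 ± 0.991), Trem2 (1.94 ± 0.196), Spp1 (1.32 ± 0.322) and Gpnmb (0.519 ± 0.0768), with Cd68 and Cst7 again within their spread (all CPM per kilobase, SD, n = 3 each). Per kilobase, Spp1 thus stood above Trem2 in dKO and below it in WT. Merged exons count every annotated exon, 4946 bases for Trem2, 6514 for Gpnmb and 6051 for Ctsb. Genes with long, rarely used exons therefore appear lower on this scale than their main transcripts would. Without division by length, Trem2 was above Spp1 in both groups (14.4 against 6.45 CPM in dKO and 9.61 against 2.17 CPM in WT).

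As a sum, the 10 genes stood at 406, 403 and 402 CPM in dKO replicates 1 to 3, against 327, 292 and 330 CPM in WT replicates 1 to 3. The groups did not overlap, and the mean of 404 ± 2.02 CPM in dKO was 1.28 times that of 316 ± 20.9 CPM in WT (SD, n = 3 each). As a share of the counts without ribosomal RNA the sum was 0.370% ± 0.00555 in dKO and 0.287% ± 0.0175 in WT (SD, n = 3 each). Ctsb, Ctsd and Lyz2 made up most of it, 79.5% ± 0.193 in dKO and 80.2% ± 0.353 in WT. Without Ctsd and Ctsb, which cells other than macrophages also make, the sum was 169 ± 4.42 CPM in dKO and 123 ± 9.98 CPM in WT, a ratio of 1.37. Spp1 and Gpnmb together were a small but larger part of the sum in dKO, 3.24% ± 0.145 against 1.75% ± 0.0934 in WT (SD, n = 3 each). That larger part only restates that these genes had the largest fold changes of the 10.

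Across all 8444 genes tested, 0.734% passed the test as higher and 1.18% as lower in dKO (edgeR, adjusted p under 0.05 over all tested genes). All 10 genes were tested, though Spp1 and Cst7 reached the filter's minimum in the 3 dKO libraries but in only 1 and 2 WT libraries, so these entered through the dKO group. Of the 10, Spp1, Gpnmb, Lyz2, Ctsd and Fcgr3 passed as higher and none as lower (also none lower at an unadjusted p under 0.05, and none lower with DESeq2). The 3 dKO values lay above the 3 WT values for 6 of the 10, these 5 and Trem2, and below them for none, against 8.66% and 8.31% of all tested genes. At an unadjusted p under 0.05, 5.66% of all tested genes were higher and 6.88% lower, and 49.8% of all had a positive value, the background for the lists below. Nothing is read from the counts of the 10, since the contrast was known when the genes were chosen. Leaving out 1 library gave 2 genes (without WT replicate 1 or WT replicate 2) to 5, with 3 without dKO replicate 1 or dKO replicate 2, 4 without dKO replicate 3, and 3 with DESeq2. Spp1 and Lyz2, already known to differ when the genes were chosen, passed in each of these fits, which adds no support. The median log2 fold change of the 10 was 0.42, against -0.00072 over all tested genes.

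**Figure D2:**
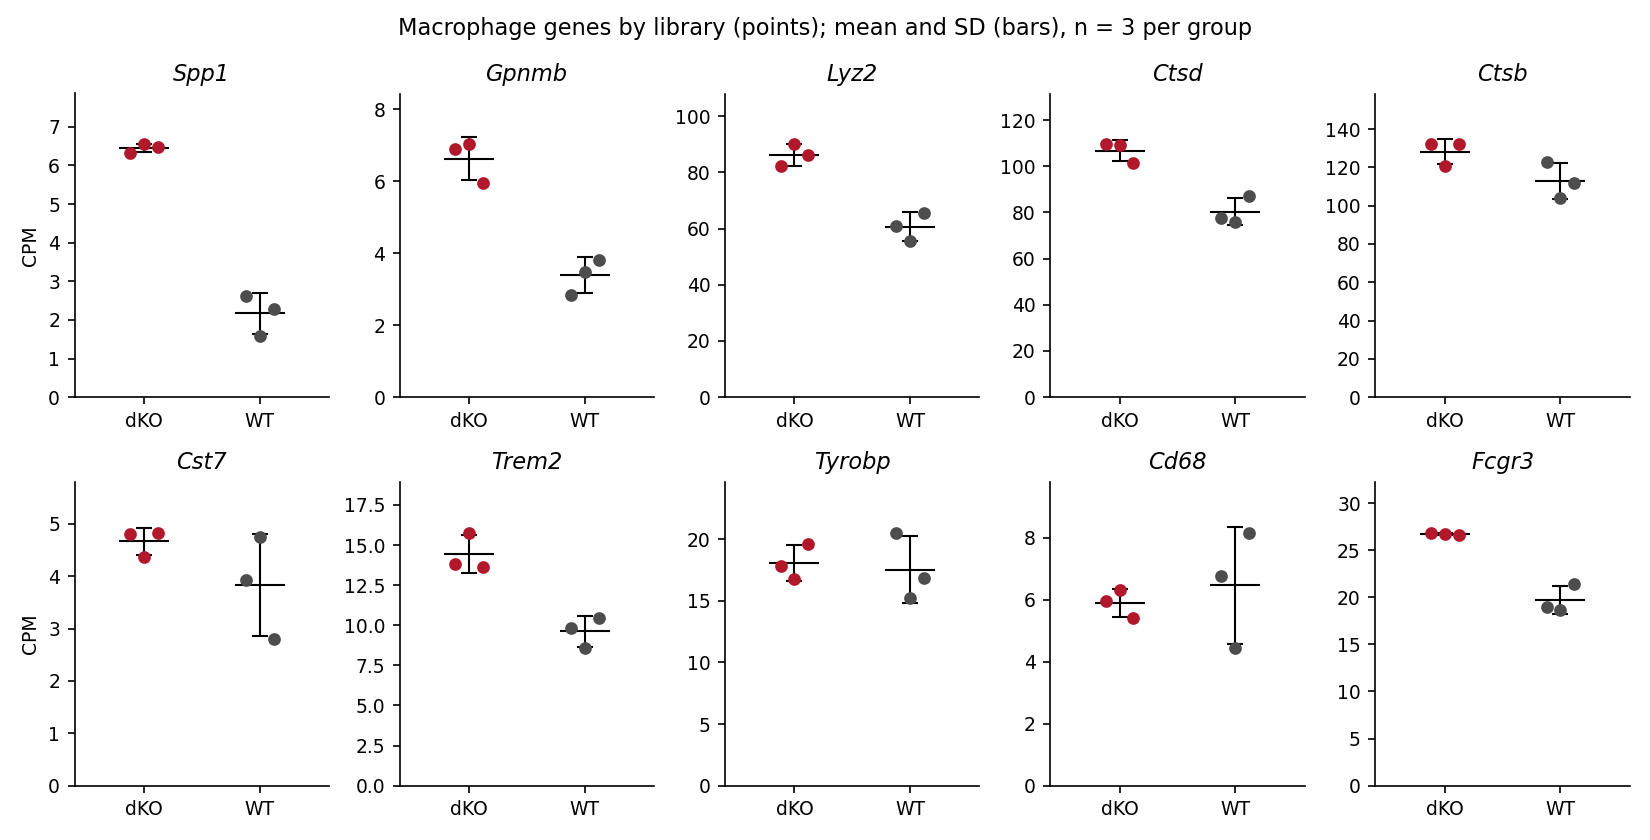
CPM of each of the 10 macrophage genes (y axes, each from 0) in every dKO library (left, red points) and WT library (right, grey points), with mean and SD bars, n = 3 each. The groups were apart for Spp1, Gpnmb, Lyz2, Ctsd, Trem2 and Fcgr3 and overlapped for Ctsb, Cst7, Tyrobp and Cd68.

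Among the receptors and their adaptor, Trem2 and Fcgr3 had higher values in dKO while the groups overlapped for Tyrobp. Trem2, a lipid receptor of microglia (chromosome 17, 48346401 to 48354147 in GRCm38), was at 13.8, 15.8 and 13.6 CPM in dKO replicates 1 to 3, against 9.83, 8.55 and 10.5 CPM in WT replicates 1 to 3. All dKO values were above all WT values, with a log2 fold change of 0.54 ± 0.16 (SE), which did not pass the threshold over all genes.

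Tyrobp, also called DAP12, is the adaptor through which Trem2 signals (chromosome 7, 30413760 to 30417585). It measured 17.8, 16.7 and 19.6 CPM in dKO replicates 1 to 3 and 20.5, 15.2 and 16.8 CPM in WT replicates 1 to 3, with overlapping groups (0.058 ± 0.132, SE). Its value without dKO replicate 3 was -0.034, with the opposite sign.

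Fcgr3, a low-affinity receptor for antibody-coated particles (chromosome 1, 171051174 to 171064935), was at 26.9, 26.7 and 26.6 CPM in dKO replicates 1 to 3, against 19.0, 18.7 and 21.4 CPM in WT replicates 1 to 3. Its dKO libraries were all above WT, by a log2 fold change of 0.44 ± 0.12 (SE). Its call was lost without any 1 library except WT replicate 3 and with DESeq2. Of the 50-base words in its annotated transcripts, 9.58% also occur in another gene, chiefly Fcgr2b, so some reads may be shared; Fcgr2b itself was at 19.7 ± 1.53 CPM in dKO and 16.2 ± 1.34 CPM in WT (0.32 ± 0.13, SE, not called).

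For both secreted proteins, Spp1 and Lyz2, on which the choice of genes rested, every dKO value lay above every WT value, and Spp1 entered the fit through its dKO libraries. Spp1 encodes osteopontin, an adhesive protein that binds integrins and Cd44 and is made by activated macrophages and, in the retina, by alpha RGCs (chromosome 5, 104435118 to 104441050). It was at 6.33, 6.55 and 6.46 CPM in dKO replicates 1 to 3 (33, 27 and 99 counts), against 2.62, 1.58 and 2.30 CPM in WT replicates 1 to 3 (12, 5 and 9 counts). Every WT library was lower than every dKO library, a log2 fold change of 1.52 ± 0.28 (SE), or 2.88-fold.

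With 26 WT counts in all, the Spp1 fold change had a wide 95% interval of 1.95 to 4.24. Without 1 library its log2 fold change was 1.37 (without WT replicate 2) to 1.69 (without WT replicate 1). Gm42793, a gene model that overlaps Spp1 on the same strand, shares 11.6% of the 50-base words of Spp1. Markers of the alpha RGC, a retinal cell that also makes Spp1, did not pass besides Spp1 itself. Kcng4, a potassium channel subunit, was the only other one of 5 tested, at -0.15 ± 0.18 (SE). The summed level of that list, Spp1 included, was 14.6 to 19.6 CPM in dKO and 12.2 to 16.1 CPM in WT. Spp1 itself gave 6.45 CPM of the mean of 16.6 CPM in dKO and 2.17 CPM of 14.2 CPM in WT. Without Spp1, the mean of that list was lower in dKO than in WT, and the library values overlapped. The melanopsin gene Opn4 had 6 counts in dKO replicate 3, 2 counts in WT replicate 3 and none in the other 4 libraries. The part of alpha RGCs, or of any other cell type, in the Spp1 value was not tested.

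Lyz2 (chromosome 10, 117277331 to 117282321) was at 82.1, 90.0 and 86.2 CPM in dKO replicates 1 to 3, against 61.0, 55.4 and 65.5 CPM in WT replicates 1 to 3. The groups were well apart, by a log2 fold change of 0.50 ± 0.097 (SE), or 1.41-fold. The near copy Lyz1, the lysozyme of Paneth cells in the gut, shares 15.4% of the 50-base words of Lyz2 but had only 1, 4 and 8 counts in dKO replicates 1 to 3 and 1 count in each WT library. Of 11 neutrophil markers, a cell type that also makes lysozyme, 8 were at 0 in all libraries and S100a9 had a single count. Their summed level of 24.5 to 26.1 CPM in dKO and 19.2 to 23.1 CPM in WT came nearly all from Lcn2, which reactive glia also make, and Csf3r. Of the 2 neutrophil markers tested, edgeR and DESeq2 called none. With edgeR 1 was higher at an unadjusted p under 0.05, and 1 had all dKO values above all WT values, against 5.66% and 8.66% of all tested genes.

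Gpnmb, a transmembrane glycoprotein of macrophages and pigment cells that is induced when lysosomes are loaded (chromosome 6, 49036546 to 49070929), had the next largest fold change after Spp1. Its level was 6.91, 7.04 and 5.94 CPM in dKO replicates 1 to 3 (36, 29 and 91 counts), against 2.84, 3.49 and 3.83 CPM in WT replicates 1 to 3 (13, 11 and 15 counts). Each dKO value lay above each WT value, with a log2 fold change of 0.93 ± 0.25 (SE), or 1.90-fold. The call was lost with DESeq2 and without dKO replicate 1, dKO replicate 2, WT replicate 1 or WT replicate 2. The pigment cell genes Tyr, Tyrp1, Mlana and Slc45a2 were at 0 in all 6 libraries, and 10 pigment epithelium and melanocyte markers summed to 0.457 to 1.15 CPM in dKO and 0.219 to 1.27 CPM in WT.

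Of the 4 lysosomal genes Ctsd had groups that did not overlap, and Ctsb, Cst7 and Cd68 had groups that did. Ctsd (chromosome 7, 142375911 to 142388038), with the E-boxes shown above, was at 109.6, 109.2 and 101.6 CPM in dKO replicates 1 to 3, against 77.8, 76.0 and 87.0 CPM in WT replicates 1 to 3, apart and with a log2 fold change of 0.41 ± 0.095 (SE). Gm49369, which overlaps Ctsd on the same strand, shares 32.4% of its 50-base words. The call of Ctsd was lost without WT replicate 1 or WT replicate 2.

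Ctsb, cathepsin B, a cysteine protease (chromosome 14, 63122462 to 63145923), gave 132, 121 and 132 CPM in dKO replicates 1 to 3 and 123, 104 and 112 CPM in WT replicates 1 to 3. Its groups overlapped at 1 library (0.18 ± 0.095, SE). Its locus overlaps Fdft1 on the opposite strand, and the strand setting of the counting is not given in the sources used here.

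Cst7, cystatin F, an inhibitor of lysosomal cysteine proteases (chromosome 2, 150570415 to 150578944), had 4.80, 4.37 and 4.83 CPM in dKO replicates 1 to 3 (25, 18 and 74 counts) and 3.93, 4.75 and 2.81 CPM in WT replicates 1 to 3 (18, 15 and 11 counts). The WT libraries spread widely and overlapped with dKO (0.32 ± 0.26, SE). Its 95% interval, -0.20 to 0.85, leaves room for both no difference and one of nearly the size seen for Gpnmb. Cd68, macrosialin, a membrane glycoprotein of macrophage lysosomes (chromosome 11, 69664213 to 69666153), had the only negative value of the 10. It was at 5.95, 6.31 and 5.42 CPM in dKO replicates 1 to 3 and 6.77, 4.44 and 8.16 CPM in WT replicates 1 to 3, with WT on both sides of dKO (-0.20 ± 0.22, SE). The 95% interval of its log2 fold change ran from -0.64 to 0.23.

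**Figure D3:**
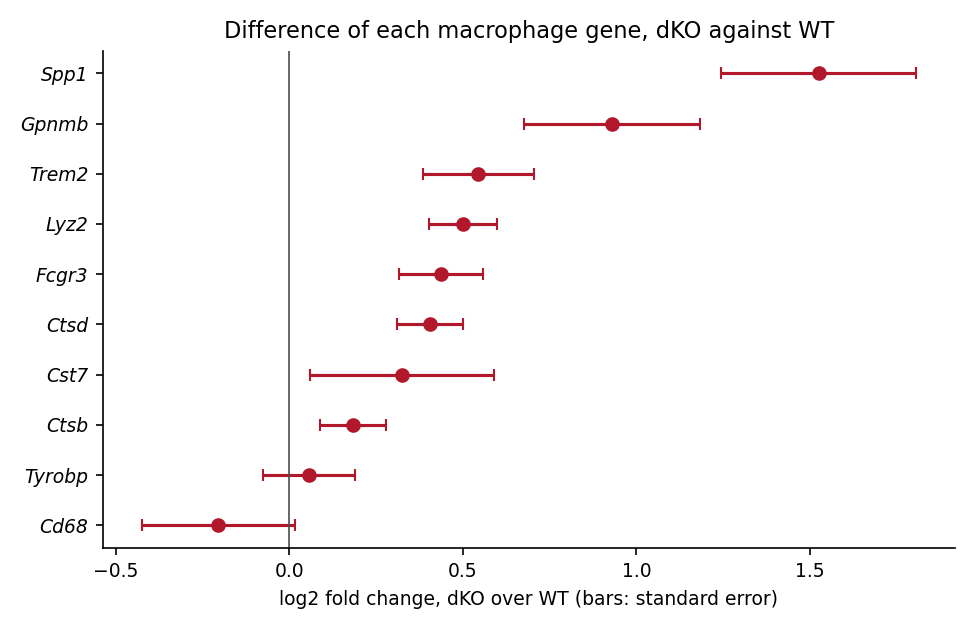
Log2 fold change of each of the 10 macrophage genes, dKO over WT (x axis), with bars of 1 standard error from the edgeR fit on 3 against 3 libraries. Values run from -0.20 for Cd68 to 1.52 for Spp1.

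Because the genes of a pair are counted in the same library, their ratio does not depend on scaling; the pairs were chosen after the counts were seen and carry no test. Trem2 counts per Tyrobp count were 0.774, 0.942 and 0.697 in dKO replicates 1 to 3 and 0.479, 0.563 and 0.621 in WT replicates 1 to 3, all dKO values above all WT values. Fcgr3 per count of Fcer1g, the gamma chain it needs at the surface, averaged 2.65 ± 0.468 in dKO and 1.47 ± 0.172 in WT (SD, n = 3 each), also without overlap; Fcer1g itself was at 10.3 ± 1.65 CPM in dKO and 13.5 ± 2.10 CPM in WT (-0.37 ± 0.16, SE, not called). Fcgr3 per count of Fcgr2b, its neighbour and near copy, overlapped between the groups, at 1.49, 1.33 and 1.27 in dKO replicates 1 to 3 and 1.24, 1.05 and 1.38 in WT replicates 1 to 3.

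Lyz2 per count of Csf1r, the growth factor receptor of all macrophages, was 0.810 ± 0.0730 in dKO and 0.608 ± 0.0434 in WT, without overlap. Ctsd per Ctsb count (0.835 ± 0.0685 in dKO and 0.714 ± 0.0732 in WT) and Cd68 per count of the lysosomal membrane gene Lamp1 (0.102 ± 0.0151 and 0.113 ± 0.0282 in dKO and WT) overlapped (SD, n = 3 each). The sum of the 10 genes per summed count of 18 homeostatic microglia markers was 0.665, 0.634 and 0.648 in dKO replicates 1 to 3, against 0.526, 0.524 and 0.539 in WT replicates 1 to 3. The groups did not overlap, which is description only, since the 10 genes were chosen with the contrast known. Ctsd and Ctsb, which cells other than macrophages also make, are in the sum, so it is no ratio per microglial cell.

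**Figure D4:**
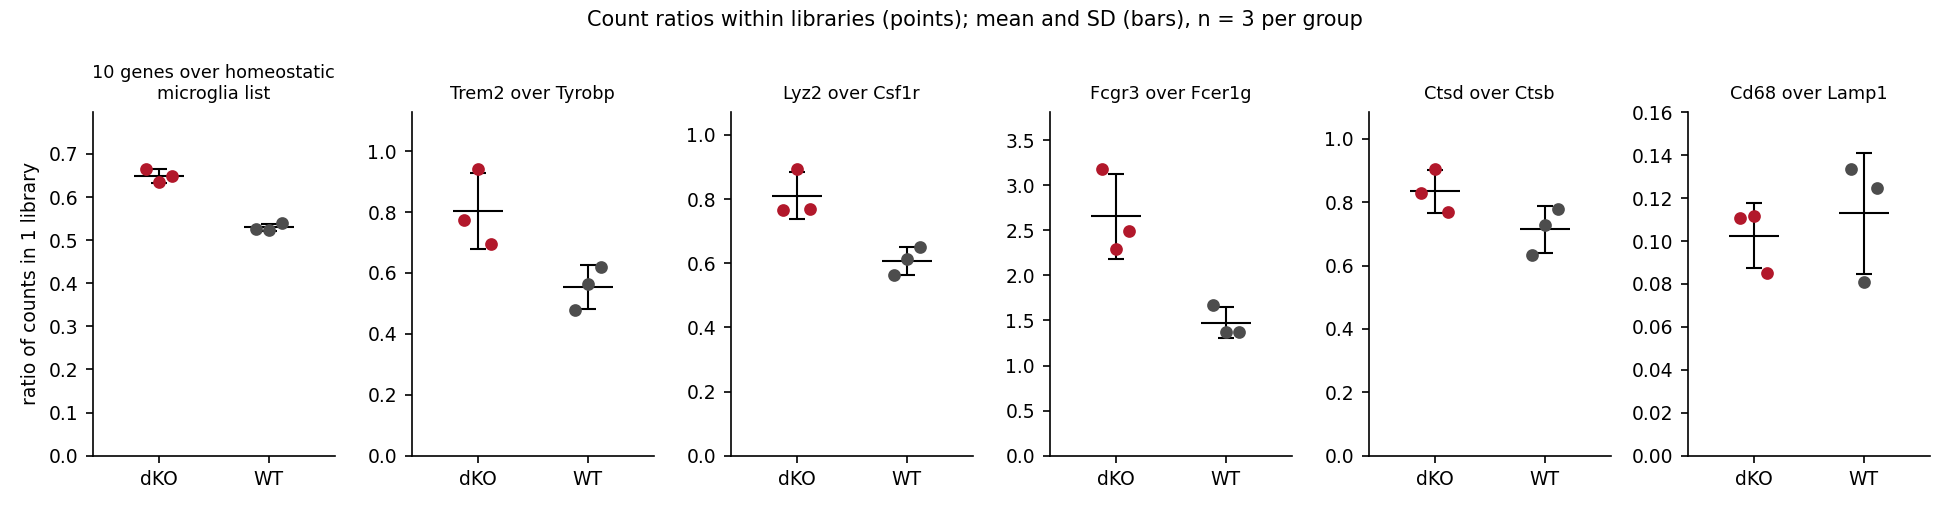
Ratios of counts within a library (y axes, from 0) for the 10 macrophage genes over 18 homeostatic microglia markers and for 5 gene pairs, in each dKO library (left, red) and WT library (right, grey), with mean and SD bars, n = 3 each. The first 4 ratios did not overlap between the groups, while Ctsd over Ctsb and Cd68 over Lamp1 did.

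No general microglial marker passed. Of 15 tested homeostatic microglia markers none was called (edgeR; none at an unadjusted p under 0.05 and none with DESeq2), with a median log2 fold change of 0.00069, against -0.00072 over all genes. Csf1r was at 107 ± 5.67 CPM in dKO and 99.998 ± 8.93 CPM in WT (SD, n = 3 each). C1qc, a complement chain (0.19 ± 0.097, SE), and Olfml3 (0.42 ± 0.25) had the smallest p and did not pass. The summed level of these markers overlapped, 611 to 636 CPM in dKO and 559 to 621 CPM in WT.

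Of 8 tested markers of infiltrating and border macrophages none was called either (2 were higher and 1 lower at an unadjusted p under 0.05; none with DESeq2), and the median was -0.20. Mrc1, the mannose receptor of perivascular macrophages (1.21 ± 0.37, SE; edgeR adjusted p = 0.069), and Adgre1, the F4/80 antigen (0.39 ± 0.13; 0.0881), had all dKO values above all WT values. Mrc1, with 6, 4 and 7 counts in WT replicates 1 to 3, entered the fit through its dKO libraries. Of that list, 2 tested markers lay wholly above WT and 2 wholly below, against 8.66% and 8.31% of all tested genes. A positive value was seen for 3 of the 8. Fn1, fibronectin, was the most abundant of the list together with Adgre1. Among 4 tested dendritic cell genes the growth factor receptor Flt3 (-1.08 ± 0.36) and the chemokine receptor Ccr7 (-1.03 ± 0.39) had the smallest p, and none was called (2 lower at an unadjusted p under 0.05, none with DESeq2); the list's median was -0.60, and Itgax and Siglech were its most abundant genes.

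Other genes of the disease-associated state did not pass the edgeR test. Of 25 listed, 19 were tested and none was called (edgeR; 2 higher and 1 lower at an unadjusted p under 0.05; none with DESeq2, 1 higher with limma-voom), with a median of -0.014. Apoe, the lipid carrier that Müller glia also make in quantity, was at 712 ± 27.2 CPM in dKO and 642 ± 27.1 CPM in WT (0.15 ± 0.11, SE) and was the gene limma-voom called. Ccl6, a chemokine (1.15 ± 0.39), had all dKO values above WT, and Lgals3bp, an interferon-inducible secreted glycoprotein (-0.32 ± 0.11), all below. Neither passed (edgeR adjusted p = 0.129 and 0.143). Ccl6 had 16, 11 and 49 counts in dKO replicates 1 to 3 and 5, 5 and 6 in WT replicates 1 to 3. It entered the fit through its dKO libraries.

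Among other lysosomal genes a single call was made. Of 42 tested lysosomal hydrolases and activators, 1 rose and none fell (6 higher and none lower at an unadjusted p under 0.05, against 5.66% and 6.88% of all tested genes; none with DESeq2), with a median of 0.054. The gene that rose was Pla2g15, a lysosomal phospholipase, at 15.1 ± 1.56 CPM in dKO and 10.1 ± 1.64 CPM in WT (SD, n = 3 each; 0.58 ± 0.16, SE; adjusted p = 0.0266). Its call was lost with limma-voom (adjusted p = 0.0575) and without dKO replicate 1 (0.0659), dKO replicate 3 (0.173), WT replicate 1 (0.0937) or WT replicate 2 (0.210).

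None of 16 tested lysosomal membrane and sorting genes passed (none at an unadjusted p under 0.05, none with DESeq2; median 0.042), the smallest p belonging to Gnptab (-0.38 ± 0.22, SE), which makes the mannose 6-phosphate tag of lysosomal enzymes, and Cln3 (0.65 ± 0.38). Of 15 vacuolar ATPase subunits, the proton pump that acidifies lysosomes, 13 had a positive value, against 49.8% of all tested genes, and none passed (1 higher at an unadjusted p under 0.05, none with DESeq2; median 0.16), with Atp6v1b2 at 0.27 ± 0.12 and Atp6v0b at 0.35 ± 0.18. Cst3, cystatin C, and Cstb, cystatin B, the tested cystatins besides Cst7, were at 0.15 ± 0.097 and 0.29 ± 0.32 (SE) and did not pass (none at an unadjusted p under 0.05, none with DESeq2).

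Signalling and uptake partners had no call in the edgeR test with its default dispersion. Of 19 tested genes downstream of or beside Trem2 and Tyrobp none passed (1 higher and 1 lower at an unadjusted p under 0.05; none with DESeq2; median 0.013). Vav1, a guanine nucleotide exchange factor (0.33 ± 0.16, SE), and Fcer1g had the smallest p. None of 5 tested further Fc receptor genes passed (1 higher, Fcgr2b, and 1 lower, Fcer1g, at an unadjusted p under 0.05; none with DESeq2; median -0.049).

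Among 24 tested phagocytic and scavenger receptor genes and their ligands none passed (4 higher and 3 lower at an unadjusted p under 0.05, against 5.66% and 6.88% of all tested genes; none with DESeq2; median -0.019). Lrp1, a large endocytic receptor that neurons and glia also use, was at 85.8 ± 7.06 CPM in dKO and 104 ± 9.35 CPM in WT (-0.29 ± 0.096, SE; edgeR adjusted p = 0.116), and was called lower by limma-voom (0.0224) and by edgeR with robust dispersion (0.0393). Gas6, the ligand that bridges dying cells to the receptor Mertk, was at 0.43 ± 0.16. Of the receptors for osteopontin none of 6 tested passed (1 higher and 1 lower at an unadjusted p under 0.05; none with DESeq2; median -0.056), among them the integrin chains Itga9 (-0.45 ± 0.18) and Itgb5 (0.20 ± 0.0998).

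**Figure D5:**
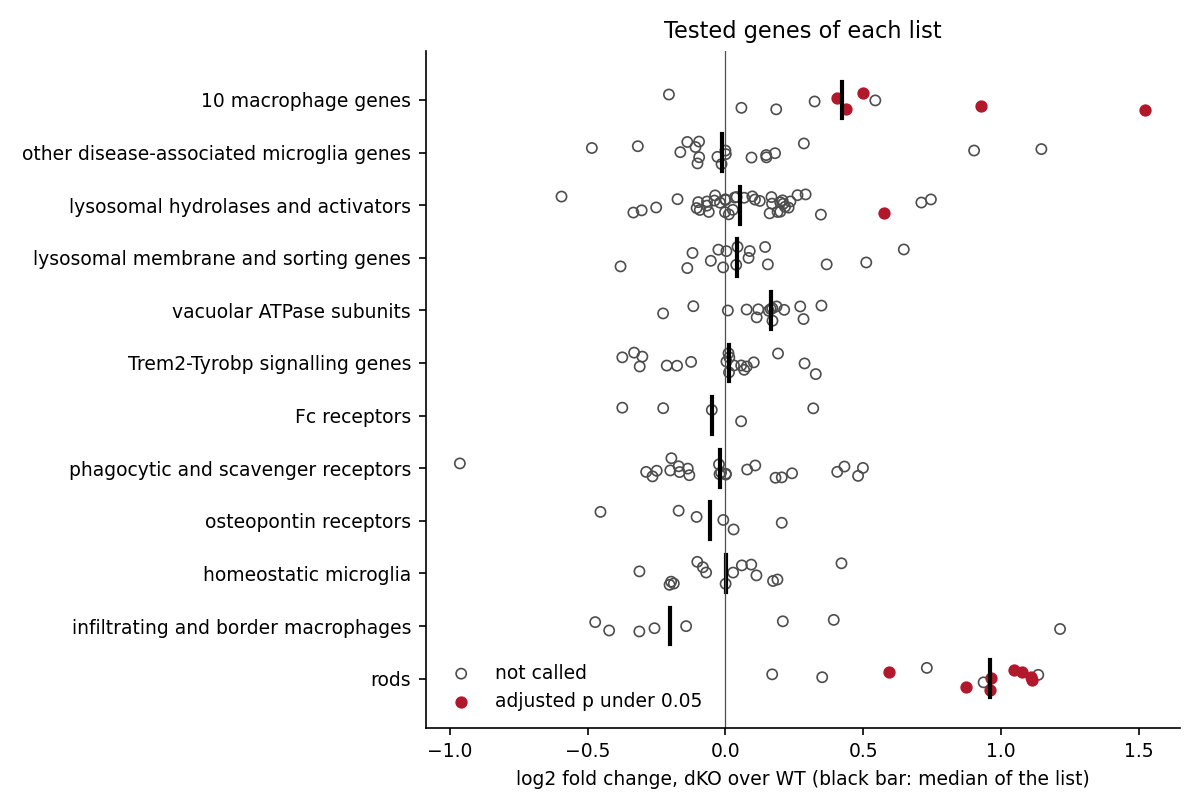
Log2 fold change, dKO over WT (x axis), of every tested gene in the 10 macrophage genes and in 11 other lists (rows); filled red points passed an edgeR adjusted p of 0.05, open points did not, and black bars are list medians. The median was 0.42 for the 10 genes, between -0.20 and 0.16 for the 10 other macrophage, lysosome and uptake lists, and 0.96 for rods.

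Transcripts of rods, another retinal cell type, were also higher in dKO. Of 13 tested rod photoreceptor markers 8 rose and none fell (median 0.96), and the summed level of the 14 listed was 404 to 498 CPM in dKO and 225 to 260 CPM in WT; none of these markers is among the 10 genes. Prph2 (1.11 ± 0.12, SE), Gnat1 (0.96 ± 0.12) and Sag (0.87 ± 0.12), of the rod outer segment, rose, and Gnb1, a G protein chain that many cells make, was among the most abundant of the list. Of 12 Müller glia and astrocyte markers, edgeR and DESeq2 each called 1 higher and none lower, while limma-voom called 3 higher and edgeR with robust dispersion 1 higher and 1 lower. Gfap, the filament of reactive glia, rose in the edgeR test (37.9 ± 4.08 CPM in dKO and 23.1 ± 2.77 CPM in WT), and the summed level of the list, led by Glul and Clu, was 3478 to 3677 CPM in dKO and 3353 to 3471 CPM in WT. Of 3 tested RGC markers the neurofilament gene Nefl rose (1.63 ± 0.28, SE), while Thy1 (-0.073 ± 0.168) and Isl1 (-0.65 ± 0.23, all dKO values below WT) did not pass. Nefl had 40, 30 and 100 counts in dKO replicates 1 to 3, against 8, 6 and 12 in WT replicates 1 to 3. Like Spp1, Nefl entered the fit through its dKO libraries. The part of rod RNA or of reactive glia in the values of the 10 genes was not tested.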

How the data were processed

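The labels' protocols describe total RNA of FACS-purified cells prepared for sequencing with a TruSeq stranded kit. STAR 2.7.0d, DESeq2 1.22.2 and GRCm38 are named, per the submitters' processing notes; neither the counting program and its strand setting nor the annotation is given in the sources used here. The deposited table holds raw read counts per Ensembl gene, not normalized by the authors. Positions and exon lengths came from GENCODE M21 (GRCm38), promoters from RefSeq (GRCm38.p6).

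Low genes were removed with filterByExpr (minimum count 10, total 15), and libraries were scaled by TMM factors. The two-sided quasi-likelihood F test of edgeR 4.0.16 under R 4.3.3 had group as its only term, and p-values were adjusted by Benjamini-Hochberg over all 8444 tested genes. Each SE was derived from the fold change and its F value (size over root F). The steps were tested on simulated data. The 10 genes and the lists were chosen with earlier results of these data known. All 10 genes are named. From each list the text names up to 4 passing genes, otherwise the 2 of smallest p, and from marker lists the 2 most abundant (some genes under this rule are not reported here); further genes (among them Apoe, Lyz1, Opn4, S100a9, the pigment genes at 0, Clec7a and Arg1) were named after their values were seen. Alternatives tried were scaling by RLE, by the upper quartile or by library totals, leaving out the ribosomal RNA row, other filters, DESeq2 1.42.0, limma-voom (limma 3.58.1), robust dispersion, a replicate block, thinning of dKO replicate 3 and leaving out each library. Figures were drawn with matplotlib 3.10.9.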

Additional observations from a re-analysis of the deposited data

How the results depend on the processing

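Genes passing as higher and lower over the whole table were 62 and 100, and 3 and 0 with library totals in place of TMM, 26 and 26 with DESeq2, 108 higher at an adjusted p under 0.1, and 29 to 71 higher and 61 to 115 lower without 1 library (lowest without WT replicate 1; 66 lower without dKO replicate 3). Of the 10 genes, 5 passed as higher, against 0 with library totals, 3 with DESeq2 and 2 to 5 without 1 library; none passed as lower in any of these fits, and 0 to 0 without 1 library. Library totals, which hold the ribosomal RNA, moved the median of all tested genes to 1.21 and the log2 ratio of the summed 10 genes to 1.56, against 0.35; there Cd68 read 1.01, with the opposite sign but below that median, and the 10 genes had a median of 1.63. Without Ctsd and Ctsb the log2 ratio was 0.45, and without 1 library 0.29 to 0.39. Tyrobp, at 0.058, read -0.034 without dKO replicate 3 and -0.027 without WT replicate 2, within a range of -0.034 to 0.19 without 1 library. Trem2 passed with upper-quartile scaling and with dKO replicate 3 thinned, and Fcgr3 did not pass when it was thinned; Gpnmb did not pass with limma-voom. Over the single genes, 154 of the alternative values kept direction and side of the threshold, 21 lost a call, 2 gained one and 3 changed sign. The cause of these changes was not tested. Samples share only a replicate number (correlation of deviations 0.013 to 0.029 for the 3 pairs); with the replicate block, 5 of the 10 genes passed, and 58 genes were higher and 100 lower over the table. Depth limits Spp1, Gpnmb, Cst7 and Cd68 most, with 5 to 32 counts in each WT library.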

Other observations

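Some genes of macrophage activation had few counts. Arg1, arginase 1, an enzyme that macrophages switch on during repair, had 5, 11 and 28 counts in dKO replicates 1 to 3, against 2, 0 and 0 counts in WT replicates 1 to 3. It was too rare for the filter. With no low-count filter its log2 fold change was 3.26, a size that rests on 2 WT counts. It was called there and without dKO replicate 1 or WT replicate 1, but not without WT replicate 2 or WT replicate 3. Nothing is read from these calls. Arg1 was picked for its counts, and it passed the filter in the fits without 1 library only through dKO. Mrc1, another gene of that state, had 15, 17 and 52 counts in dKO and 6, 4 and 7 in WT replicates 1 to 3, and Clec7a, a receptor for fungal glucans that disease-associated microglia express, 18, 22 and 50 counts in dKO and 9, 4 and 10 in WT. Neither passed over all genes (edgeR adjusted p = 0.069 and 0.206), and both entered the fit through their dKO libraries. The lists that hold these genes were not higher in general. A positive value was seen for 3 of 8 tested infiltrating and border macrophage markers (median -0.20). The same held for 8 of 19 tested other disease-associated genes (median -0.014). Arg1 and Clec7a were picked out after their counts were seen.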
